A study of Mus musculus with 4 samples.

Results

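Neurons answer a burst of synaptic input with a programme of induced transcripts, and 10 genes of the part of that programme that acts at or towards the synapse were followed here: Arc, Homer1, Bdnf, Nptx2, Nr4a2, Nr4a3, Inhba, Rgs2, Plk2 and Rasgrp1. They were chosen by name, and every transcript cluster whose gene symbol equalled one of the names was taken, which gave 11 of the 33793 clusters on the array. A cluster here means the probes that read a single transcribed locus. Each gene had a single cluster except Rgs2, whose other cluster lies on the opposite strand and has probes marked as able to cross-hybridize.

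The series compared RNA from the whole brain of adult 129SV females on 4 Affymetrix whole-transcript arrays, 2 from wild-type and 2 from Adar2-/- brains. ADAR2, encoded by Adarb1, deaminates adenosine to inosine in double-stranded RNA. Per the study's methods the animals were female siblings from heterozygous intercrosses, and mice of both genotypes were homozygous for a pre-edited Gria2 allele, Gria2 R/R, which rescues the early lethality of the knockout. The wild-type arrays are therefore not from mice with a normal Gria2 locus, and the values speak only of ADAR2 loss on that background. The labels do not say that each array is a separate animal, so p-values measure only the spread between these arrays. Signals are log2 values as the authors normalized them, and a difference is always knockout minus wild type on the log2 scale.

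Adarb1 itself checked the labels, with 10.50 and 10.45 on the wild-type arrays and 9.16 and 8.96 on the knockout arrays. Array medians ran from 6.03 to 6.09. As female mice have no Y chromosome, the signals of 4 Y-linked clusters, from 3.49 to 4.40, give an idea of the floor. The pan-neuronal markers Snap25, Syt1, Rbfox3, Map2 and Eno2 were all between 10.82 and 13.16. Genes of neighbouring tissues differed between arrays. Bpifa2, a salivary gland gene, was at 12.61 in Adar2 knockout replicate 1 and at 5.09 to 5.28 on the other arrays. Prl, the pituitary hormone prolactin, was at 10.11 and 9.66 in the knockout against 6.55 and 4.99 in wild type. Adar2 knockout replicate 2 was low in olfactory bulb markers, whose mean log2 signal over 6 clusters was 7.10 there and 7.57 to 7.71 elsewhere. The counts of each list are therefore also given without single arrays.

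As background, calcium that enters through NMDA receptors and voltage-gated channels activates kinases that phosphorylate the transcription factor CREB in the nucleus. A first set of induced genes encodes transcription factors such as Fos, Egr1 and Npas4. Another set encodes proteins that act directly on the synapse, by moving glutamate receptors, by scaffolding them, by signalling between cells or by damping the signal again. The genes described here belong to the latter set, with Nr4a2 and Nr4a3 as nuclear receptors that the same signals induce.

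CREB binds the cAMP response element, or CRE, whose full form reads TGACGTCA and whose half-site reads TGACG, or CGTCA on the other strand. RefSeq promoter sequences of GRCm38.p6, from 250 bases before to 50 bases after each annotated start, were at hand for 8 of the 10 genes, all but Arc and Nptx2. A half-site was present in 6 of the 8 genes, against 23.0% of all 27025 genes with a promoter sequence. Counted by promoter, it was in 6 of 15, against 20.8% of all promoters. The windows below are shown because they hold these letters, and a match is a description of the letters, not evidence of a bound site. Each is 30 bases, 5′ to 3′ on the strand of the gene, with half-sites in capitals; a full CRE is a pair of half-sites that overlap on opposite strands.
Plk2: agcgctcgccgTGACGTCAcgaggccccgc
Homer1: caagcTGACGtgagcggagggTGACGtatg
Nr4a2: gccgggcTGACGgggccgcTGACGcgcttg
Nr4a3: gtcccatgtCGTCAcatTGACGtctcgcat
Bdnf: atatgacagctcaCGTCAaggcagcgtgga
Rgs2: cttggggcgtggcTGACGcctccaggtccc
The windows lie at chr13:110394971-110395000 on the plus strand for Plk2, chr13:93303696-93303725 on the plus strand for Homer1, chr2:57124104-57124133 on the minus strand for Nr4a2, chr4:48045083-48045112 on the plus strand for Nr4a3, chr2:109692388-109692417 on the plus strand for Bdnf and chr1:144004200-144004229 on the minus strand for Rgs2.

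Plk2 was the only gene of the 8 with a full CRE, which 2.03% of all genes hold; its window begins 73 bases before the start. Homer1 has 3 half-sites in 1 of its 2 promoters. The window that begins 61 bases before that start shows 2 of them on the same strand. Nr4a2 and Nr4a3 have 4 half-sites each. Bdnf, which is transcribed from several alternative starts, had a half-site in 1 of its 7 promoters, in a window that begins 48 bases before that start. No half-site was found in the promoters of Inhba and Rasgrp1, which says only that these letters are not in those windows. A CArG box, the site of serum response factor, was found in 0 of the 8 genes and in 1.81% of all genes.

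**Figure D1:**
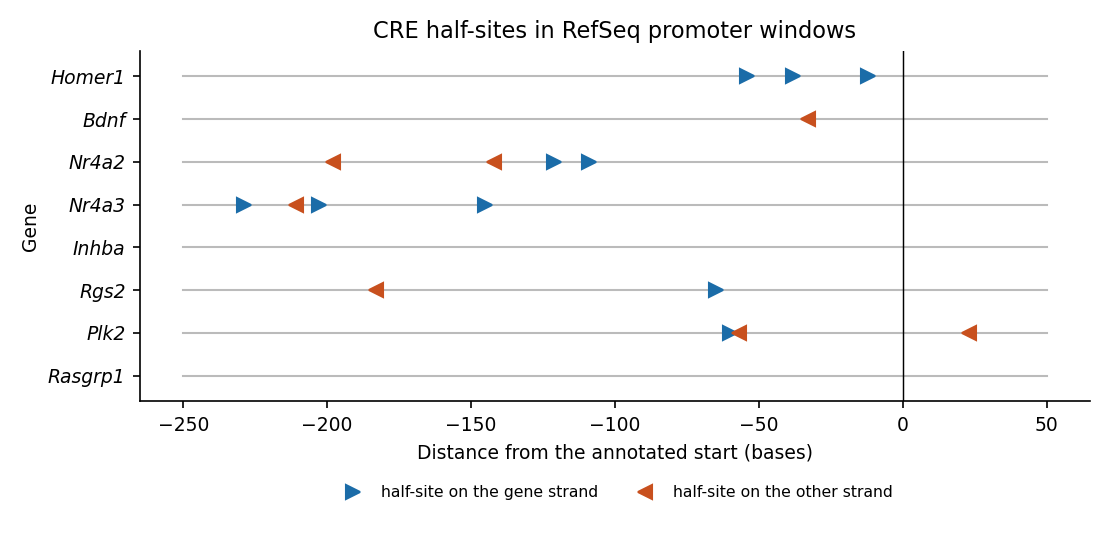
Positions of CRE half-sites (x axis, bases from the annotated start) in the promoters of the 8 synaptic effector genes with a RefSeq promoter sequence (y axis), with triangles pointing right for the gene strand and left for the other strand. The 7 promoters of Bdnf and the 2 of Homer1 are drawn on a shared line each; Plk2 carries the overlapping pair that makes a full CRE, and Inhba and Rasgrp1 carry none.

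The question put to the arrays was whether these induced transcripts differ in brains without ADAR2. None of the 11 clusters had an unadjusted limma p below 0.05, where 5.95% of all clusters did (3.64% higher and 2.31% lower in the knockout), and the lowest p was 0.0694 for Nptx2. None passed an adjusted p of 0.05 either, as was the case for 0% of all clusters, and the lowest adjusted p among the 11 was 0.835. The differences ran from -0.27 for Nptx2 to 0.25 for Inhba, with 7 clusters below 0 and 4 above. Their median was -0.035, and it was 0.005 over all clusters. Among clusters above the median signal it was -0.085 over 9 of the 11 and -0.025 over all such clusters. Without Adar2 knockout replicate 1 there was 1 cluster with an unadjusted p below 0.05, Nptx2, and without Adar2 knockout replicate 2 there was none.

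The intervals show what the data leave possible. Over the 11 clusters the lowest lower bound of a 95% interval was -0.57 and the highest upper bound 0.53, so a change of 1 in either direction, which is a doubling or halving of signal, lay outside every interval. A change of 0.5 lay inside the interval of 2 clusters, Nptx2 downward and Inhba upward. The within-genotype SD was low as well, from 0.0071 for Bdnf to 0.15 for Rgs2, and of the 10 genes only Rgs2 exceeded the median of 0.115 over all clusters. The exact two-sided permutation p of 2 against 2 arrays is 0.333 at its smallest, so non-overlap of the groups is a description.

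**Figure D2:**
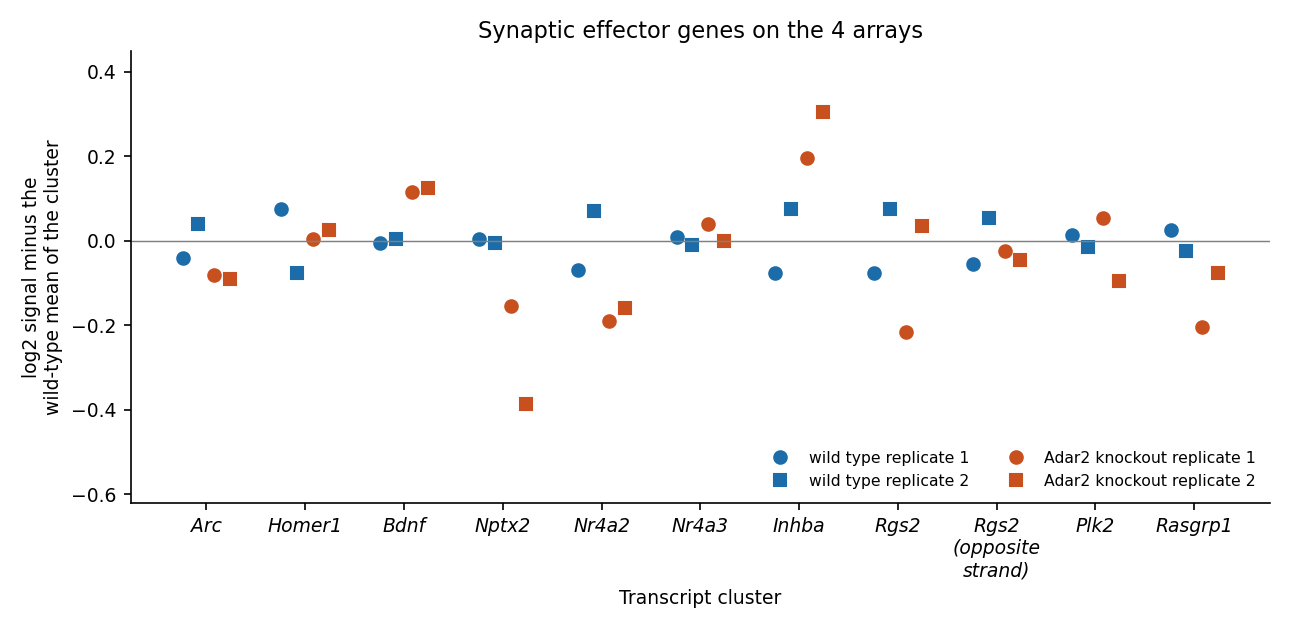
Log2 signal of each of the 11 clusters (x axis) on the 4 arrays, drawn as the distance from the wild-type mean of the same cluster (y axis, log2), with circles for replicate 1, squares for replicate 2, blue for wild type and orange for Adar2 knockout. Both knockout points lie below both wild-type points for Arc, Nptx2, Nr4a2 and Rasgrp1 and above them for Bdnf and Inhba; the points overlap for the remaining clusters.

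The groups did not overlap in 6 of the 11 clusters, 2 higher and 4 lower in the knockout. Over the whole array 34.1% of clusters did not overlap, 17.7% higher and 16.5% lower. The count was above that share, and the excess was not tested. The size of the difference exceeded the gap between replicates of either genotype in the same 6 clusters, for Arc only by 0.085 against 0.08. A difference above both gaps implies non-overlap, so this is no separate support. Its share over all clusters was not computed.

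Among secreted signals, Bdnf encodes brain-derived neurotrophic factor, which strengthens synapses through the receptor TrkB. Its cluster (chromosome 2, 109674700 to 109727047, plus strand) gave 6.61 and 6.62 on the wild-type arrays and 6.73 and 6.74 on the knockout arrays. Replicates agreed to 0.01 in either genotype and the knockout was higher on both arrays, at 109% of wild type. The difference of 0.12 (SE 0.10, 95% interval -0.13 to 0.37) had an unadjusted p of 0.281 by limma, which draws the SD of a cluster towards that of all clusters. Without this shrinkage the p was 0.00345, since it then rests on a replicate gap that is the smallest step of the deposited values. All promoters of Bdnf feed the same coding exon and the cluster spans them, so transcripts from the activity-dependent promoter were not told apart from the others.

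Inhba encodes the subunit that dimerises to activin A, a ligand of the TGF-beta family that is induced by NMDA receptor activity and acts as a neuroprotective signal. Its cluster (chromosome 13, 16011851 to 16027211, plus strand) had 5.50 and 5.65 in wild type and 5.77 and 5.88 in the knockout. Both knockout arrays were above both wild-type arrays, by 0.25 on average (SE 0.11, interval -0.033 to 0.53, limma p 0.0736), and 91.7% of all clusters had a lower difference. With each array left out in turn the difference ran from 0.175 to 0.325. The signals were the nearest to the Y-linked range among the own-strand clusters of the 10 genes, and the cluster has 16 probes, the fewest of the 10.

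Nptx2, or Narp, encodes a secreted pentraxin that clusters AMPA receptors at excitatory synapses on interneurons. Its cluster (chromosome 5, 144545887 to 144557478, plus strand) gave 9.57 and 9.56 in wild type and 9.41 and 9.18 in the knockout. The wild-type arrays agreed to 0.01, and the knockout arrays were both lower but differed from each other by 0.23. The difference was -0.27 (SE 0.12, interval -0.57 to 0.030, limma p 0.0694), or 82.9% of wild type, and 4.23% of all clusters had a lower one. It was -0.155 (p 0.217) without Adar2 knockout replicate 2 and -0.385 (p 0.0325) without Adar2 knockout replicate 1. Adar2 knockout replicate 2, the lower array, is the one low in olfactory bulb markers, of which 1 of 6 clusters, Cdhr1, had an unadjusted p below 0.05. Their mean log2 signal was 7.57 and 7.71 in wild type and 7.71 and 7.10 in the knockout, and none of the 6 reached the Y-linked range. Markers of forebrain excitatory neurons had means of 9.82 and 9.71 in wild type and 9.59 and 9.63 in the knockout, with 5 of 6 clusters below 0 and 1, Neurod6, past the same threshold. Over the whole array 16373 of 33793 clusters were below 0. The unadjusted threshold was passed by 5.95% of all clusters, 3.64% higher and 2.31% lower in the knockout. The short marker lists were not tested against these shares. Of striatal projection neuron markers 6 of 6 clusters were below 0 (median -0.1775), and Drd1a passed the unadjusted threshold at -0.32. Of cerebellar granule neuron markers 6 of 6 were below 0 (median -0.1525) and none passed. Of astrocyte markers 4 of 4 were below 0 (median -0.1725), with Gja1 past the threshold at -0.27, and of microglia markers 3 of 4 (median -0.1425), with none past it. Oligodendrocyte markers had 3 of 4 below 0 (median -0.0175), with Mog past the threshold at -0.35, and pan-neuronal markers 4 of 5 (median -0.025), with none past it. GABAergic neuron markers had 3 of 7 below 0 (median 0.06, none past the threshold), endothelium 2 of 4 (median 0.0375), with Slco1a4 higher at 0.40, and choroid plexus 2 of 5 (median 0.005, none past it). Blood markers had 3 of 5 below 0 (median -0.14) with 1 past the threshold, lower. Pituitary markers had 0 of 9 below 0 with 3 past the threshold, and salivary gland markers 1 of 6 with none past it. The part of any of these in the Nptx2 values was not tested, and in whole-brain RNA fewer cells of a type and less RNA per cell cannot be told apart.

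Of the postsynaptic proteins, Arc removes AMPA receptors from the membrane by recruiting the endocytic machinery. Its cluster (chromosome 15, 74669083 to 74672570, minus strand) was at 10.77 and 10.85 in wild type and at 10.73 and 10.72 in the knockout. The knockout arrays were lower than both wild-type arrays, but both lay nearer to the lower wild-type array than the wild-type arrays lay to each other, at a gap of 0.08. The difference of -0.085 (SE 0.10, interval -0.34 to 0.17, limma p 0.444) leaves the knockout at 94.3% of wild type, and the interval spans 79.0% to 113%. With single arrays left out the difference ran from -0.125 (without wild type replicate 1) to -0.045 (without wild type replicate 2).

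Homer1 encodes a scaffold that links metabotropic glutamate receptors to Shank and to calcium stores; a short form, Homer1a, is the activity-induced product and breaks those links. The cluster (chromosome 13, 93303757 to 93404962, plus strand) had 8.96 and 8.81 in wild type and 8.89 and 8.91 in the knockout. Both knockout values lay between the wild-type values, and the difference was 0.015 (SE 0.11, interval -0.26 to 0.29, limma p 0.896), with -0.06 without wild type replicate 2 and 0.09 without wild type replicate 1. The cluster has 43 probes along the locus, the most of the 10 genes, and gives a single value for the short and long forms together.

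Among regulators of intracellular signalling, Rgs2 encodes a GTPase-activating protein that ends signalling through Gq. Its own-strand cluster (chromosome 1, 143999338 to 144004161, minus strand) gave 9.47 and 9.62 in wild type and 9.33 and 9.58 in the knockout. Replicates differed by 0.15 and 0.25, the widest spread of the 10 genes, and the groups overlapped with a difference of -0.090 (limma p 0.522), which was 0.035 without Adar2 knockout replicate 1 and -0.215 without replicate 2. The opposite-strand cluster (chromosome 1, 144000728 to 144001211) was at 4.47 to 4.58 on the 4 arrays, just above the Y-linked range.

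Plk2 encodes a kinase that phosphorylates the spine protein SPAR and so marks it for degradation, which weakens synapses after prolonged activity. The cluster (chromosome 13, 110395044 to 110400844, plus strand) was at 9.36 and 9.33 in wild type and at 9.40 and 9.25 in the knockout. The knockout arrays lay on either side of wild type, and the difference was -0.020 (SE 0.11, interval -0.29 to 0.25, limma p 0.862), with 0.055 when replicate 2 of the knockout was left out and -0.095 when replicate 1 was. Rasgrp1 encodes a Ras activator that responds to calcium and diacylglycerol. Its cluster (chromosome 2, 117279993 to 117343001, minus strand) was at 11.62 and 11.57 in wild type and at 11.39 and 11.52 in the knockout. Both knockout arrays were lower than both wild-type arrays, and the difference was -0.14 (SE 0.11, interval -0.41 to 0.13, limma p 0.247). It was -0.075 when replicate 1 of the knockout was left out, or -0.205 when replicate 2 was.

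The nuclear receptors Nr4a2 and Nr4a3 are orphan receptors, transcription factors that are induced together with the effectors. Nr4a2 (chromosome 2, 57106830 to 57124003, minus strand), also a factor of dopamine neurons, gave 9.24 and 9.38 in wild type and 9.12 and 9.15 in the knockout. Both knockout arrays were lower, and the difference was -0.175 (SE 0.11, interval -0.44 to 0.095, limma p 0.162), or -0.105 without wild type replicate 2. Nr4a3 (chromosome 4, 48045153 to 48086447, plus strand) gave 9.17 and 9.15 in wild type and 9.20 and 9.16 in the knockout. Its 4 values lay within 0.05 of each other and the difference was 0.020 (SE 0.10, interval -0.23 to 0.27, limma p 0.851). The remaining receptor of the family, Nr4a1, is listed with the fast transcription factors and had 11.10 and 11.20 in wild type and 10.91 and 10.89 in the knockout, a difference of -0.25 (limma p 0.0564).

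**Figure D3:**
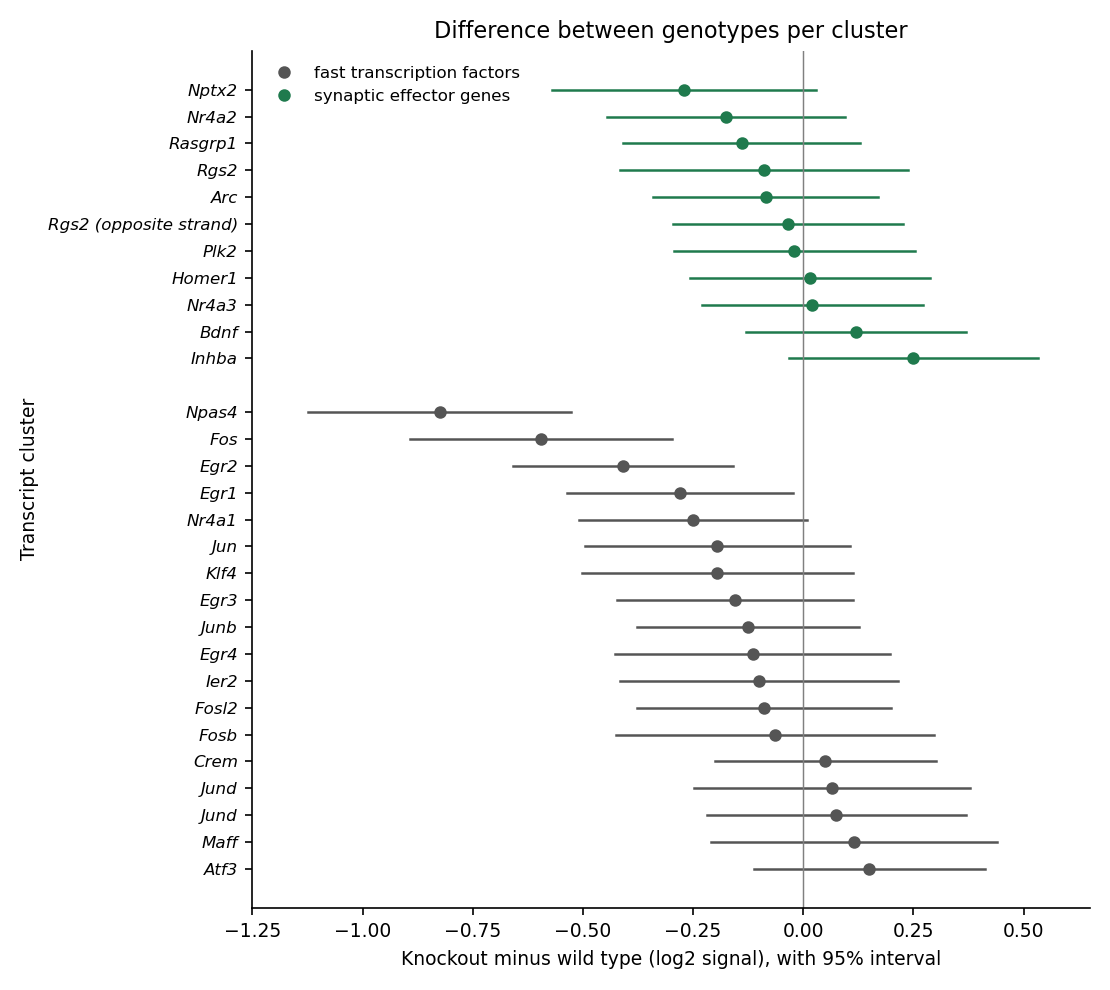
Knockout minus wild type on the log2 scale (x axis) with 95% intervals from limma for the 11 clusters of synaptic effector genes (green) and the 18 clusters of fast transcription factors (grey), 1 cluster per line (y axis). All green intervals include 0; the intervals of Npas4, Fos, Egr2 and Egr1 lie wholly below 0.

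The fast transcription factors that accompany these genes were set beside them by counts. Of 18 clusters 4 had an unadjusted p below 0.05, all lower in the knockout, beside the 2.31% of all clusters given above. The lists were chosen with earlier results of these data known, and the study had already named Npas4 as lower. The count is therefore a description. Npas4, a neuron-specific factor, went from 9.59 and 9.81 to 8.90 and 8.85, a difference of -0.825 (limma p 0.000558). Fos went from 8.32 and 8.27 to 7.59 and 7.81 (difference -0.595, limma p 0.0029), and Egr2 from 9.13 and 9.11 to 8.72 and 8.70 (difference -0.41, limma p 0.0072). Egr1 had a smaller difference of -0.28 (limma p 0.0375), which did not pass the threshold with any single array left out. The lowest adjusted p of the list was 0.829, and its median difference was -0.12. The count was 3 with any single array left out, and the median then ran from -0.195 (without wild type replicate 1) to -0.0625 (without wild type replicate 2), with -0.1825 when replicate 1 of the knockout was left out, or -0.075 when replicate 2 was. The marker lists of brain cell types given with Nptx2 had medians from -0.1975 for forebrain excitatory neurons to 0.06 for GABAergic neurons, with microglia at -0.1425. Their part in the values of the fast factors was not tested. Whether the fast factors differ from the synaptic effector genes in their response was not tested.

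A half-site was present in 10 of 13 fast transcription factors with a promoter sequence and in 6 of 8 synaptic effector genes. The window of Npas4 (chr19:4990129-4990158, minus strand) and that of Fos (chr12:85473811-85473840, plus strand) are shown for comparison with the genes above.
Npas4: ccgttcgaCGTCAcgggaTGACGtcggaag
Fos: cagttccgcccagTGACGtaggaagtccat
Synaptic effector genes, fast factors and other induced effectors with a promoter sequence were pooled, each gene by its cluster with the lowest p. Of these, 6 of 26 genes with a half-site and 1 of 12 without were lower at an unadjusted p below 0.05. Over the array 2.31% of clusters were, which is a share per cluster and not per gene. The genes were chosen with earlier results of these data known, so the counts are descriptions. The median differences were -0.10 with and -0.07 without a half-site. For the full CRE the order of the medians was the opposite, -0.0525 over 8 genes with it and -0.115 over 30 without, of which 2 and 5 were lower at that p. The 2 lower genes with a full CRE were Btg2 and Dusp1, at -0.52 and -0.44, while Plk2, with the same 8 letters, was at -0.020.

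**Figure D4:**
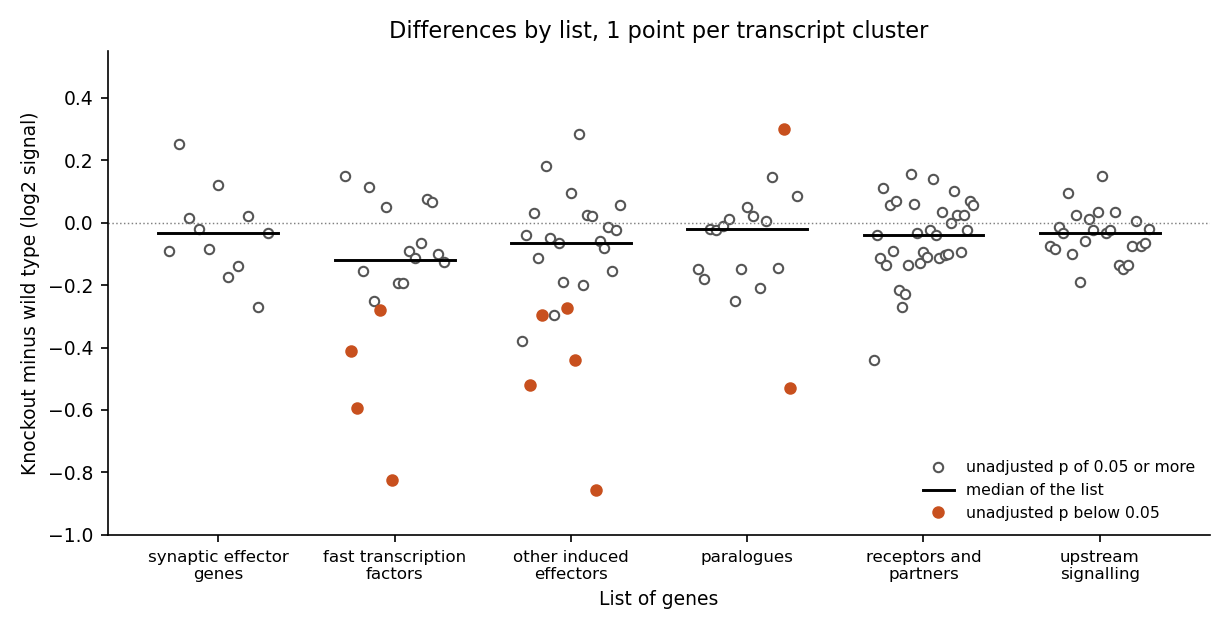
Knockout minus wild type on the log2 scale (y axis) for each cluster of 6 lists of genes (x axis), with filled points for clusters whose unadjusted limma p was below 0.05, and a bar at the median of each list. The synaptic effector genes have no filled point and a median of -0.035, and the fast transcription factors have 4 filled points, all below 0.

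Other activity-induced effectors were a list of 23 genes, also chosen with earlier results of these data known, so its counts are descriptions. The list had 5 of 25 clusters with an unadjusted p below 0.05 and a median of -0.065. All 5 were lower in the knockout, as were 2.31% of all clusters at that p. They were Cyr61, a matricellular protein, at -0.855 (limma p 0.000926), the MAP kinase phosphatases Dusp1 at -0.44 (limma p 0.00627) and Dusp6 at -0.295 (limma p 0.0313), the anti-proliferative Btg2 at -0.52 (limma p 0.00668) and Trib1 at -0.275 (limma p 0.0434). Trib1 was named after its value was seen. Dusp6 did not pass the threshold with any single array left out (limma p 0.0528 to 0.0923), and was at -0.12 (limma p 0.294) when averaged with its opposite-strand cluster, whose signals lie within the Y-linked range. Trib1 passed only without Adar2 knockout replicate 2 among the fits that leave out an array, and Btg2 did not pass without wild type replicate 2 (limma p 0.0635). The count was 3 without Adar2 knockout replicate 1 and 3 without wild type replicate 2. It was 4 without wild type replicate 1, and 5 without Adar2 knockout replicate 2, of which 1 was higher. The same marker lists stand beside these values, and their part in them was not tested.

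Paralogues of the 10 genes had 2 of 17 clusters past the unadjusted threshold, 1 in each direction, beside 5.95% of all clusters (3.64% higher and 2.31% lower). Homer2, a constitutive relative of Homer1, went from 7.97 and 7.48 to 7.31 and 7.08, a difference of -0.53 (SE 0.19, limma p 0.0317). Its wild-type arrays differed by 0.49 from each other, and the difference ran from -0.285 (without wild type replicate 1) to -0.775 (without wild type replicate 2). With an array left out Homer2 passed the threshold only in the latter fit, and the other limma p-values were 0.102 to 0.228. The higher cluster, named Rasgrp4, lies on the strand opposite to that gene's main cluster and has signals of 4.15 to 4.59, near the Y-linked range. It was higher by 0.30 (limma p 0.0432) and did not pass with any single array left out (limma p 0.0599 to 0.165), while the main Rasgrp4 cluster was at 0.145 (limma p 0.339). The count for this list was 0 without Adar2 knockout replicate 2 and without wild type replicate 1, and 1 without wild type replicate 2. It was also 1 without Adar2 knockout replicate 1, where that cluster was not Homer2.

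Receptors and binding partners of the encoded proteins had 0 of 33 clusters past the threshold, which 5.95% of all clusters passed, with a median of -0.040. The lowest p was 0.0793 for a cluster named Shank3 (-0.27) on the strand opposite to the main Shank3 cluster, which was itself at 0.07 (limma p 0.516). The next limma p-values were 0.0885 for Smad2 (-0.23), the activin signal transducer, and 0.0918 for Rxrg (-0.44), a partner of some Nr4a receptors. The activin receptor Acvr1b (-0.215) followed at a limma p of 0.117. Rxrg had wild-type arrays 0.62 apart and was at -0.13 without wild type replicate 1 and -0.75 without wild type replicate 2, and Acvr1b was at -0.115 without Adar2 knockout replicate 2. The opposite-strand Shank3 cluster was at -0.14 when replicate 1 of the knockout was left out, or -0.40 when replicate 2 was. The count for the list was 0 without wild type replicate 1 and 1 without any other single array. Ntrk2, which encodes the BDNF receptor TrkB, was at 10.77 and 10.71 in wild type and 10.81 and 10.78 in the knockout. The AMPA receptor genes Gria1, Gria2, Gria3 and Gria4, whose products Arc and Nptx2 act on, were at -0.115, -0.025, 0.055 and -0.025. Ntrk2 and the Gria genes were named after their values were seen. Upstream signalling genes, from NMDA receptor subunits and calcium channels to CREB and MEF2, had 0 of 24 clusters past the threshold, beside the same 5.95%, and a median of -0.035, with the lowest p of 0.151 for Grin2a (-0.19), which was at -0.11 without wild type replicate 2. The count stayed 0 with any single array left out.

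Array by array, the median deviation of the 11 clusters from their own mean of the 4 arrays was 0.0025 in replicate 1 and 0.045 in replicate 2 of wild type. In the knockout it was -0.0075 in replicate 1 and -0.010 in replicate 2. For the fast transcription factors it was 0.0063 and 0.11 in wild type and 0.0088 and -0.12 in the knockout. Wild type replicate 2 held the highest value in 10 of 18 clusters of fast factors and in 4 of 11 clusters of synaptic effector genes. Over all clusters it did so in 8238 of 33793. Adar2 knockout replicate 2 held the lowest value in 10 of 18, 3 of 11 and 9397 of 33793 clusters of the same sets. Genes on a shared chromosome, 3 each on chromosomes 2 and 13, differed in sign. On chromosome 2 Bdnf was above 0 with Nr4a2 and Rasgrp1 below it. On chromosome 13 Inhba and Homer1 were above 0 with Plk2 below it. Homer1, at 0.015, and Plk2, at -0.020, were near 0 and changed sign in 2 and 3 of 14 alternative fits. Whether position plays a part was not tested.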

How the data were processed

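The authors deposited 1 table with a log2 signal per array for 33793 transcript clusters, to 2 decimals. The submitters' processing notes name RMA and Affymetrix Expression Console, without versions; the build of the coordinates is not given in the sources used here. The table's columns of averages, log ratios, fold changes and p-values between genotypes were not used. Knockout and wild type were compared by moderated two-sided tests from limma 3.58.1 (R 4.3.3), fitting a term for genotype alone, without filter or further normalization. Benjamini-Hochberg adjustment ran over all clusters. Intervals are limma's at 95%. The prior SD was 0.125 with 3.79 degrees of freedom. The number of arrays, 2 per genotype, limits the precision. The 10 genes and all lists were chosen with earlier results of these data known. By rule, all 10 genes, Npas4, Fos and at most the 4 lowest p-values of each list were named; Trib1, Ntrk2 and the Gria genes were added after their values were seen. Fosl1 and Nptxr, among the listed genes, had no cluster by symbol. The calculations were tested on simulated data. Alternatives were other scalings, a filter on dim clusters, a replicate block, leaving out each array, other variance models, no cross-hybridizing clusters and 1 value per gene. RefSeq promoters (GRCm38.p6) were searched on both strands with Python 3.11.15.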

Additional observations from a re-analysis of the deposited data

How the results depend on the processing

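Of 14 alternatives, 4 put 1 of the 11 clusters past an unadjusted p of 0.05: an intensity trend in eBayes, median centring and leaving out Adar2 knockout replicate 1 gave 1 each, in every case Nptx2, and the test without shrinkage gave 1, Bdnf. The count ran from 0 to 1 with single arrays left out, and the adjusted count was 0 in all 14. The median of the 11 clusters was -0.075 after median centring, which moves the median of all clusters from 0.005 to -0.035. It was -0.085 among the 9 clusters above the median signal, beside -0.025 for all clusters above it. With single arrays left out the median of the 11 clusters ran from -0.09 to -0.025. Differences near 0 changed sign: Homer1 to -0.025 and Nr4a3 to -0.02 after median centring, Plk2 to 0.0271 with cyclic loess and 0.0213 with quantile normalization. With single arrays left out Homer1 ran from -0.06 to 0.09, Plk2 from -0.095 to 0.055, Rgs2 from -0.215 to 0.035 and a cluster of Grin2b from -0.32 to 0.02, and the opposite-strand cluster of Rgs2 reached 0.02.

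With single arrays left out the counts ran from 3 to 3 for fast transcription factors, 3 to 5 for other induced effectors, 0 to 1 for paralogues and 0 to 1 for receptors and partners. Fast transcription factors numbered 3 with cyclic loess and 3 with quantile normalization, all lower. They numbered 5 with an intensity trend, with median centring and with the filter on dim clusters, and 6 without shrinkage, again all lower. Other induced effectors numbered 3 with cyclic loess. Paralogues numbered 1 with cyclic loess, 1 with quantile normalization and 1 with 1 value per gene. The test without shrinkage gave 2 receptors and partners and 1 upstream gene. What caused these shifts was not tested. Deviations of arrays of equal replicate number had a Pearson's r of 0.052 over all clusters. With 2 arrays per genotype this cannot show whether the numbers mark a pairing, which the labels do not state. A fit that blocked on the replicate number passed 0 of the 11 clusters, 3 fast factors, without Egr1, and 4 other effectors.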
